A study of Rattus norvegicus with 8 samples.

Results

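Transcripts of the theca layer, the ovarian stroma and vascular smooth muscle were examined in RNA of rat granulosa cells, through the 9 genes Cyp17a1, Col1a1, Col1a2, Col3a1, Dcn, Mgp, Eln, Acta2 and Pdgfrb. They are 9 of the 14217 genes named by the platform annotation, and the array carries 14 probe sets for them, of 20826 with 1 gene symbol and 31099 in all. Those are the probe sets whose annotation named exactly 1 of the 9. A further 5 probe sets that named Acta2 together with the cardiac actin gene Actc1 were not used. Immature rats had received eCG, a gonadotropin that drives follicles to grow. A second injection followed 24 h later, of anti-eCG antibody to induce atresia, the degeneration of the follicle, or of pre-immune serum. After embryo transfer 0% of the oocytes of the antibody group and 30 to 50% of those of the serum group reached term. RNA of granulosa cells isolated from follicles was measured on 8 Affymetrix arrays, whose labels differ only in a number (2074, 2076 and 2194 to 2199). No label gives an array's treatment, so no array was placed in a group and no comparison between treatments was made; what follows describes the values and their spread over the arrays. Where 8 values are listed, they follow the arrays 2074, 2076, 2194, 2195, 2196, 2197, 2198 and 2199.

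A growing follicle is enclosed by a basement membrane, with the granulosa cells inside it and the theca, blood vessels and stroma outside it. Theca cells make the androgens that granulosa cells turn into oestradiol, and the outer theca and stroma lay down fibrillar collagen, elastin and small proteoglycans and hold smooth muscle and pericytes. Granulosa cells are collected by opening follicles, so theca and stromal transcripts in such RNA are commonly read as a measure of other follicle cells. In RNA of a cell mixture, fewer cells of a type and less RNA per cell cannot be told apart.

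Values are signals on a linear scale after each array had been brought to a common level. The 40th percentile of each array, between 273 and 471, served as a floor, and a probe set counted as measured when it lay above the array's median, 395 to 686, on at least 2 arrays. For a background independent of the floor, 17 probe sets of olfactory receptor genes, which nasal neurons use, were followed. By the same rule 5 of these 17 counted as measured. Their median rank lay between the 22.2 and 44.9 percentile of each array and the brightest of them between the 54.2 and 68.9 percentile. Of the 14 member probe sets 10 were measured, at least 1 for each of the 9 genes, against 67.5% of all named probe sets. Mgp and Acta2 lay above the median on all 8 arrays, as did 38.9% of named probe sets. The other 4 member probe sets, the second of Col1a1, the second of Eln and 2 of the 3 of Pdgfrb, reached the median on 1 array at most. Probe sets differ in brightness for a given amount of RNA, so the levels of different genes were not ranked against each other.

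**Figure D1:**
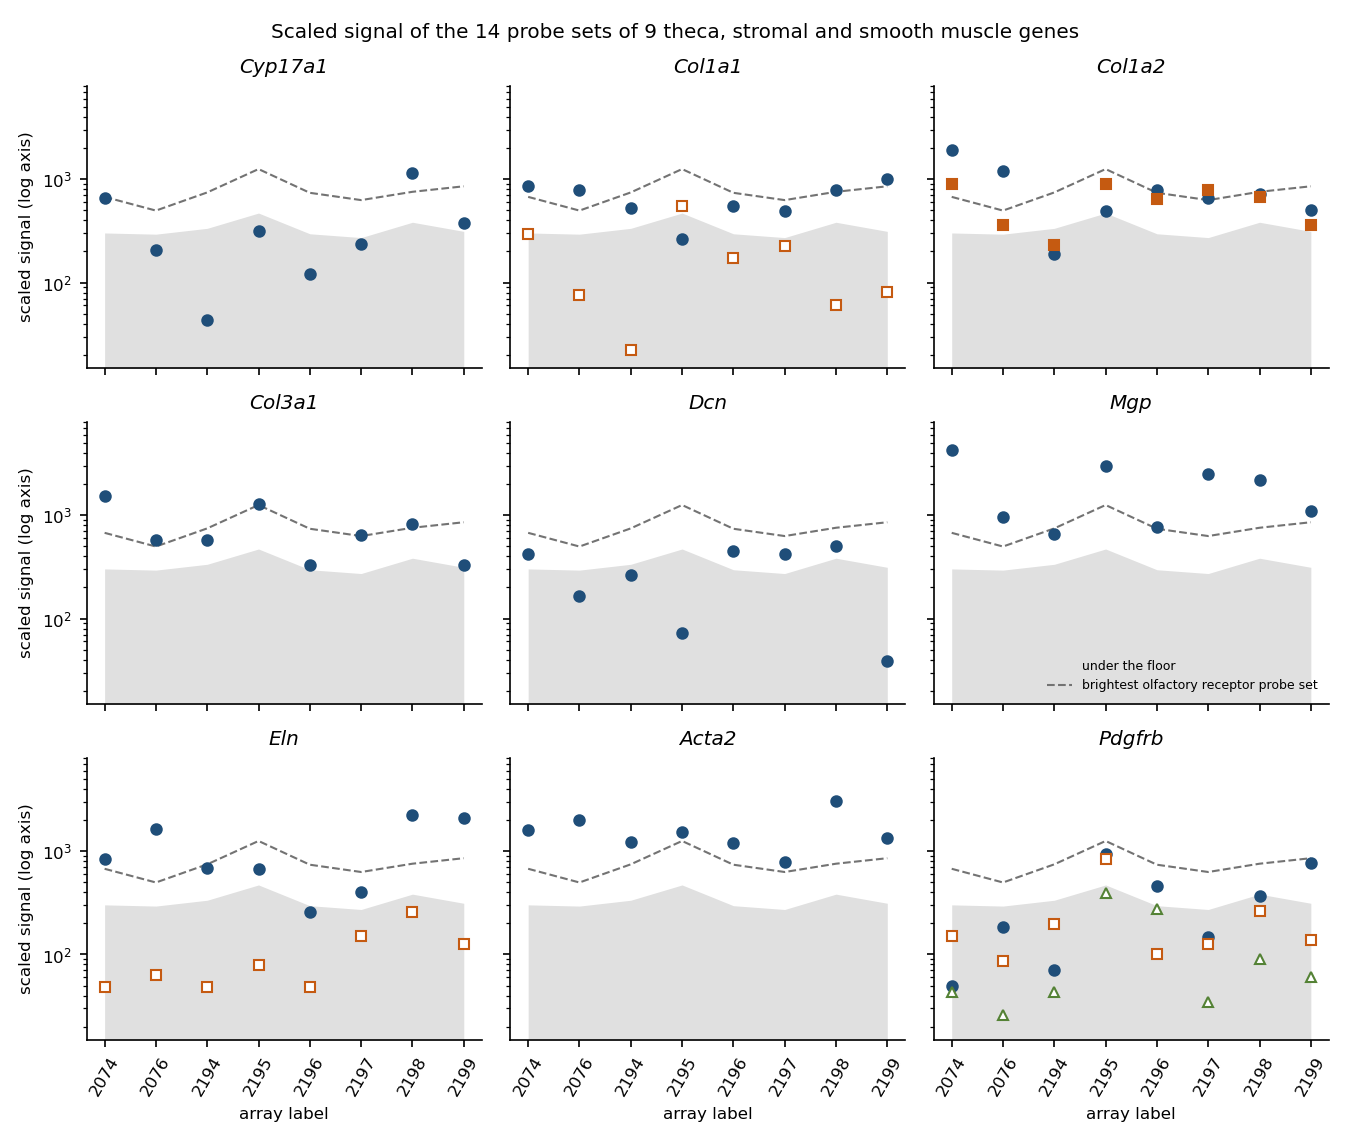
Scaled signal (log axis) of each of the 14 member probe sets on the 8 arrays, 1 panel per gene; each colour and shape is 1 probe set, filled where it was measured and open where it was not. Grey marks signals under the floor of each array and the dashed line the brightest of 17 olfactory receptor probe sets: Acta2 lay above that line on 8 arrays and Mgp on 7, Dcn and Pdgfrb on 0.

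Cyp17a1, the enzyme that makes androgens in theca cells, was in the range of the background on 7 of 8 arrays. Its 1 probe set gave 658, 208, 44, 318, 122, 236, 1159 and 374. It lay above the array median on arrays 2074 and 2198 and under the floor on 5 arrays. Above the brightest olfactory receptor probe set it stood on 1 array, 2198. Spread is given below as the inner range, which after the floor divides the array ranked second from the top by that ranked second from the bottom. For Cyp17a1 it came to at least 2.24-fold. Without array 2074 or array 2198 the value second from the top was itself raised to the floor, so no inner range could be read. Insl3, which encodes a hormone of theca cells, was above the median on 2 arrays, with 1009.9 on array 2195 and 558 on array 2198, and it was 43 on array 2196. The brightest olfactory receptor probe set was 1256 on array 2195 and 756 on array 2198, and Insl3 lay under it on every array.

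The 3 fibrillar collagen genes had median signals over arrays of 612 to 689 in their brightest probe sets, beside array medians of 395 to 686. Col1a1, which encodes the alpha1 chain of type I collagen, gave 864, 793, 531, 261, 547, 498, 792 and 1000.2 in its measured probe set. The values on 7 arrays lay within 498 to 1000.2 and array 2195 alone was under the floor. Its inner range was 1.73-fold and its other probe set was under the floor on 7 arrays.

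Col1a2 encodes the alpha2 chain, which joins alpha1 chains in the same triple helix. Its brighter probe set gave 1936, 1192, 190.5, 496, 791, 655, 725 and 508. Arrays 2074 and 2076 both lay above the other 6, which was so for 1 of the 10 measured member probe sets and for 13.2% of all measured probe sets. The inner range was 2.40-fold, against 1.60-fold when array 2074 or array 2076 was left out and 1.48-fold over arrays 2194 to 2199. The other Col1a2 probe set gave 893, 358, 229.8, 895, 641, 782, 669 and 360.5, so array 2076 was high in 1 probe set and low in the other. Pearson's r between the log2 signals of the pair before the floor was 0.57 over the 8 arrays (two-sided exact permutation p = 0.148) and Spearman's rho was 0.17 (exact permutation p = 0.703). With the floor, which is used in all correlations below, r was 0.36.

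Col3a1, the chain of type III collagen, which runs with type I collagen in distensible tissue, gave 1543, 579, 573, 1273, 333, 647, 814 and 329. Arrays 2074 and 2195 stood highest and arrays 2196 and 2199 lowest. The inner range of 3.82-fold was larger than in 98.4% of the 14058 measured probe sets and than in 97.2% of the 702 of like signal. It was 2.44-fold without array 2074, 2.42-fold without array 2195 and 2.21-fold without array 2196 or 2199.

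The other matrix genes were Mgp, Eln and Dcn. Mgp encodes matrix Gla protein, an inhibitor of calcification secreted by smooth muscle and cartilage cells. It gave 4309, 952, 660.2, 3028, 775, 2511, 2192 and 1103. The arrays fell into 4 high ones, 2074, 2195, 2197 and 2198, between 2192 and 4309, and 4 low ones between 660.2 and 1103. The inner range was 3.91-fold, larger than in 97.9% of 703 probe sets of like signal, and with any 1 array left out the log2 inner range stayed between 1.66 and 1.97.

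Eln, elastin, the protein of elastic fibres, gave 839.6, 1633, 689, 673, 255, 404, 2228 and 2081. It was high on arrays 2076, 2198 and 2199 and low on 2196 and 2197. The inner range was 5.15-fold, wider than in 99.6% of measured probe sets, and 3.11-fold without array 2196 or 2197. The second Eln probe set gave 48 to 256 and lay under the floor on all 8 arrays, so the spread of Eln rests on 1 probe set. Dcn, decorin, a small proteoglycan that binds collagen fibrils, gave 422, 165, 262, 73, 450.5, 426, 506 and 39. It was above the median on 2 arrays and under the floor on 4, and it exceeded the brightest olfactory receptor probe set on 0 of 8, so no order over arrays was read from it. After the floor both its second highest and its second lowest value were floor values, so its inner range could not be read either. Before the floor it was 6.20-fold.

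Acta2, the smooth muscle actin of vessel walls and the outer theca, was 1 of the 2 members above the median on every array. It gave 1589, 2024, 1228, 1531, 1197, 782, 3072 and 1351. Array 2198 was highest and array 2197 lowest, and the other 6 lay between 1197 and 2024. The inner range was 1.69-fold, wider than in 45.2% of measured probe sets, and the full range, highest over lowest array, was 3.93-fold. Pdgfrb, the PDGF receptor of pericytes, had 1 measured probe set of 3, with 49, 186, 70.3, 937, 457, 148, 369.6 and 771. It was under the floor on 5 arrays, and its inner range of at least 2.62-fold became at least 1.56-fold without array 2195 or array 2199. Array 2195 was the highest of the 8 in each of the 3 Pdgfrb probe sets, with 937, 844 and 393. All 3 values lay under the brightest olfactory receptor probe set of that array, 1256, and the value of 393 was also under its floor. On the same array the floor was the highest (471), hybridisation control signals were 2.35 times their median over arrays against 0.674 to 1.28 times on the other 7, and 23.6% of all measured genes had their highest value. The part of these in the Pdgfrb values was not tested.

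Across the 10 measured member probe sets, 7 reached 2-fold in inner range, beside 31.7% of all 14058 measured probe sets. They belonged to Cyp17a1, Col1a2 (both probe sets), Col3a1, Mgp, Eln and Pdgfrb, and those of Col1a1 and Acta2 stayed below. That of Dcn did not reach it, but was a ratio of floor values. The median inner range was 2.45-fold in the members and 1.74-fold over all measured probe sets, with lower bounds taken as they stand. Since a weak probe set passes through its highest arrays, this share describes the probe sets that passed and not all 14. Over arrays 2194 to 2199 alone, 5 of 9 measured member probe sets reached 2-fold, beside 13.0% of all. When array 2195 was also left out it was 2 of 9, beside 6.14%.

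**Figure D2:**
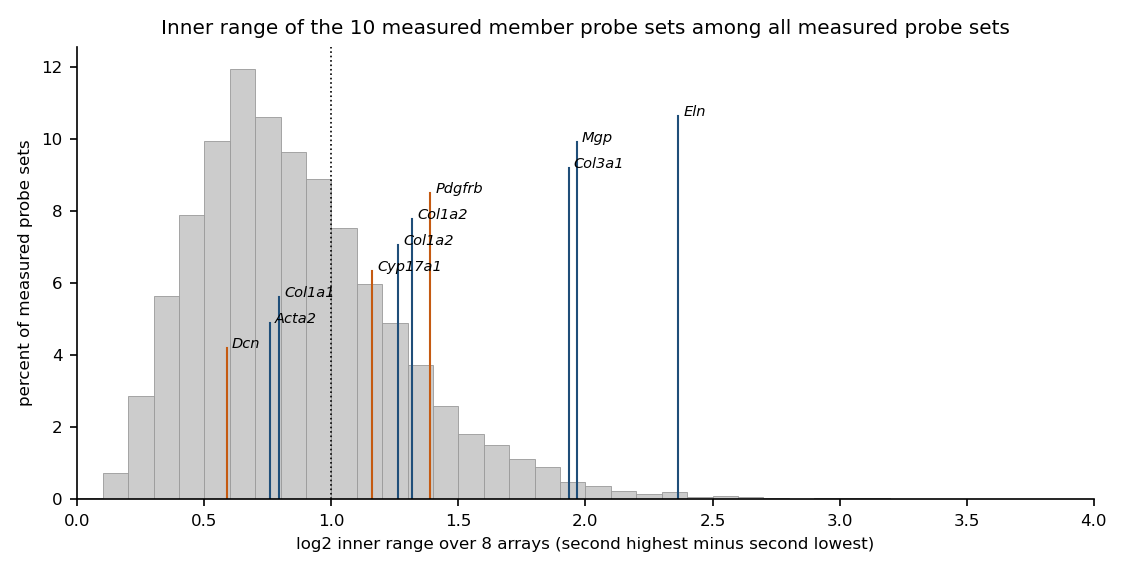
Distribution of the log2 inner range over all 14058 measured probe sets (grey bars, percent of probe sets per bin of 0.1) with the 10 measured member probe sets as lines of arbitrary height; orange lines are members whose second lowest array was raised to the floor. Eln, Mgp and Col3a1 stand at 2.36, 1.97 and 1.93, and the dotted line marks 2-fold.

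Most pairs of the 9 genes were weakly correlated over arrays. Among their 36 pairs, each gene by its brightest measured probe set, the median Pearson r of log2 signals over the 8 arrays was 0.18 and single values ran from -0.45 to 0.83. The median r of a member with the other members ran from 0.04 (Pdgfrb) to 0.53 (Cyp17a1). With all other measured genes it ran from -0.11 (Col1a2) to 0.13 (Pdgfrb). The median with other members was the higher for every member but Pdgfrb. This difference was not tested. As a yardstick, the brightest 2 probe sets of one gene had a median r of 0.16 over the 2664 genes with 2 measured probe sets. An r of at least 0.8 was found in 1 of the 36 pairs and in 1.95% of all pairs of measured genes. A permutation p under 0.05 was found in 4 of the 36, beside 6.26% of the relations of a member with any measured gene.

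These 4 pairs were Col3a1 with Mgp, Col1a1 with Eln, Acta2 with Cyp17a1 and Acta2 with Eln. Col3a1 and Mgp, both highest on arrays 2074 and 2195, had r = 0.83 (exact permutation p = 0.011, adjusted over the 10512 other genes 0.79) and rho = 0.81 (exact permutation p = 0.0218). Over arrays 2194 to 2199 r was 0.76 (exact permutation p = 0.0944), and without arrays 2074 and 2195, the farthest from the Col3a1 median, it was 0.57. Without arrays 2074 and 2194, the farthest from the Mgp median, it was 0.85. Col1a1 and Eln had r = 0.79 (exact permutation p = 0.0343, adjusted 0.761) and rho = 0.67 (exact permutation p = 0.0831). Over arrays 2194 to 2199 that r was 0.84 (exact permutation p = 0.0597), and it was 0.78 without arrays 2195 and 2199 and 0.65 without arrays 2198 and 2199. Acta2 and Eln had r = 0.74 (exact permutation p = 0.0314, adjusted 0.845), rho = 0.79 (exact permutation p = 0.0279), r = 0.71 over arrays 2194 to 2199 (exact permutation p = 0.0917) and r = 0.55 without arrays 2197 and 2198, or 0.80 without arrays 2198 and 2199. Acta2 and Cyp17a1 had r = 0.76 (exact permutation p = 0.0297, adjusted 0.843) and rho = 0.64 (exact permutation p = 0.0962). Over arrays 2194 to 2199 that r was 0.96 (exact permutation p = 0.00139, the smallest that 6 arrays allow). Without arrays 2197 and 2198 it was 0.15, so the relation rests on these 2 arrays. It was 0.37 without arrays 2074 and 2198, and Cyp17a1 was under the floor on 5. On arrays 2194, 2195, 2196 and 2197 its values in r and p were therefore the floors, 335, 471, 297 and 273. Acta2 on these arrays, 1228, 1531, 1197 and 782, had the same order as the floors. The part of floor differences in this r and p was not tested. The adjusted p, by Benjamini-Hochberg over all measured genes, was under 0.05 for 0 genes with any of the 9 members, although 299 to 1746 genes per member had an unadjusted p under 0.05.

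Col1a1 and Col1a2, whose chains form the same fibre, had r = 0.46 (exact permutation p = 0.253, adjusted 0.853) and rho = 0.52 (exact permutation p = 0.197). Without arrays 2195 and 2199, the farthest from the Col1a1 median, r was 0.75, without arrays 2074 and 2194, the farthest from the Col1a2 median, it was 0.17, and over arrays 2194 to 2199 it was 0.11 (exact permutation p = 0.808). Col1a1 and Col3a1 had r = -0.09 (exact permutation p = 0.82, adjusted 0.971) and rho = -0.24 (exact permutation p = 0.582), with r = -0.45 over arrays 2194 to 2199 (exact permutation p = 0.325) and r = 0.66 without arrays 2195 and 2199. Without arrays 2074 and 2195 it was -0.17. The lowest of the 36 was Col1a2 with Pdgfrb, at r = -0.45 (exact permutation p = 0.266, adjusted 0.577) and rho = -0.43 (exact permutation p = 0.299). Its r was -0.14 over arrays 2194 to 2199 (exact permutation p = 0.8) and -0.76 without arrays 2074 and 2194, or -0.21 without arrays 2195 and 2199.

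**Figure D3:**
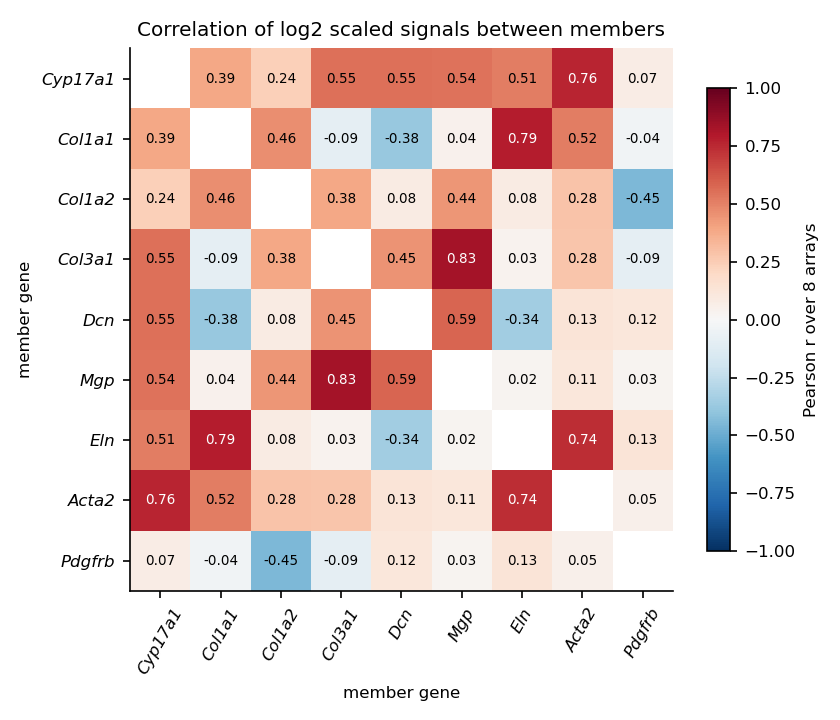
Pearson correlation of log2 scaled signals over the 8 arrays between the 9 members (rows and columns, brightest measured probe set of each), with r in each cell and red for positive values. Col3a1 with Mgp (0.83) and Col1a1 with Eln (0.79) are the 2 highest of the 36 pairs, whose median is 0.18.

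Below are the 3 genes outside the members with the highest r to each member over the 8 arrays. They were Carm1, Usp48 and Ptcd3 for Col1a2, Dyrk1a, Golga5 and Pacsin3 for Col3a1, Decr1, Ndufv3 and Glrx5 for Col1a1, Poc1b, Poglut2 and Miat for Mgp, Rgs9, Gps2 and Nrip3 for Eln and Mzt1, Rhbdf1 and Klhl3 for Acta2. For the 3 members under the floor on 4 or 5 arrays they were Frmpd1, Reep6 and Stradb for Cyp17a1, Zap70, Kash5 and Olfm1 for Dcn and Nuak2, Dpp10 and Tmem117 for Pdgfrb. Pearson's r ran from 0.93 to 0.99 over these 27, the 3 highest per member among its 10512 candidates, and the smallest adjusted p was 0.0869 (exact permutation test, Pdgfrb with Dpp10). These 27 were not on any of the cell type lists used here. Those lists hold few of the candidates, so this was likely from the start and nothing is concluded from it.

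The score of the 9 genes on an array, the mean log2 distance of each from its own median over arrays, was 0.62, 0.09, -0.40, 0.32, -0.38, -0.25, 0.66 and 0.10. It was taken after the floor, which was highest on array 2195 (471). There Cyp17a1 (318), Col1a1 (261) and Dcn (73) were raised to it. The part of the floor in the score was not tested. Arrays 2198 and 2074 stood highest and arrays 2194 and 2196 lowest. Different genes stood highest on the 2 high arrays. Of the 9 genes 4 had their highest value on array 2198, beside 14.5% of all measured genes. They were Cyp17a1, Eln, Acta2 and, within background, Dcn, which was 506 there, under that array's median of 543. On array 2074 it was 3 (Col1a2, Col3a1 and Mgp), beside 14.2%. The score is in log2 units, so its inner range is a difference and not a ratio. It was 1.001, where 1 stands for 2-fold. Of 6 surface epithelium genes 5 had a probe set of their own and 2, Krt8 and Msln, were measured. Their score was 0.27, 0.22, 0.35, 0.38, -0.34, -0.47, 0.78 and 0.10, also highest on array 2198. Msln, the mesothelial surface protein mesothelin, was 1423 on array 2198 and at most 669 elsewhere, and Krt8, a keratin, was 319 there. The part of such cells in the members' score was not tested.

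Array 2074 was also the highest in 2 of 3 measured red cell genes. Of 6 such genes listed, 3 had a probe set of their own. Hbb, the beta-globin gene, gave 45704 on array 2074 against 3709 to 12573 on the other 7. Alas2, the enzyme that starts haem synthesis in red cells, gave 3193 against 88 to 669, while Slc4a1, the band 3 anion exchanger, was 27 on array 2074 and at most 913. The erythroid score was 1.57, 0.21, 0.17, -0.09, 0.29, -0.60, -0.00 and -0.47. The ratio of the 3′ to the 5′ beta-actin control probe sets, a sign of RNA integrity and labelling, was 10.99 and 12.1 on arrays 2074 and 2076, and 4.67 to 8.08 on arrays 2194 to 2199. The same ratio for the Gapdh control was 6.66 and 6.07 on arrays 2074 and 2076, within the 5.27 to 8.81 of arrays 2194 to 2199. The part of either in the Col1a2, Col3a1 and Mgp values was not tested.

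Of 17 further fibroblast and stroma matrix genes 12 were measured, beside 10513 of all 14217 named genes. On all 8 arrays 7 of the 12 were measured, beside 8108 of the 14058 measured probe sets. These 7 were Col5a1, Col5a2, Col12a1, Fbn1, Sparc, Ogn and Lox. In 6 of the 12 the inner range reached 2-fold, beside 29.9% of all measured genes by their brightest probe set. Lox, the enzyme that cross-links collagen and elastin, gave 4811, 2497, 5795, 2555, 2900.4, 1244, 1923 and 1146, an inner range of 3.87-fold, with its highest values on arrays 2194 and 2074 where Eln gave 689 and 839.6. Col5a1, a chain of type V collagen, had an inner range of 2.43-fold and was lowest on array 2195 (3654), as Col1a1 was. Pdgfra, Postn, Tcf21, Bgn and Col6a2 had no measured probe set.

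Of 11 smooth muscle and pericyte markers other than the members 6 were measured, beside 10513 of all 14217 named genes. On all 8 arrays 0 of these 6 were measured, beside 8108 of the 14058 measured probe sets. Tagln, Des, Rgs5, Cspg4 and Actg2 had no measured probe set. Tpm2, a tropomyosin, had an inner range of 3.71-fold. It was highest on array 2074 (1819) and lowest on array 2198 (294), where Acta2 was highest. Myh11, the smooth muscle myosin heavy chain, was lowest on array 2076 (189) and highest on array 2196 (748). Of 5 further theca genes with a probe set 3 were measured. Nr2f2, a nuclear receptor of theca and stroma, ran from 1980.0 to 3299, with an inner range of 1.45-fold. Hsd3b1, which granulosa cells express as well, had an inner range of 1.36-fold, and Gli1 and Hhip, targets of hedgehog signals to the theca, had no measured probe set.

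Of 11 endothelial markers 10 had a probe set of their own and 5 were measured, 1 of them (Esam) on all 8 arrays. Vwf, Kdr, Flt1, Plvap and Eng had no measured probe set. The endothelial score was 1.09 on array 2195 and at most 0.29 on the other 7, and the floor to which weak values were raised was also highest on array 2195. Of 9 macrophage and leukocyte genes 7 were measured, with Lyz2 and Cd14 on all arrays. Of 8 oocyte genes 5 had a probe set of their own and 2 were measured. Of 11 granulosa genes 10 had a probe set of their own and 10 were measured, 8 on all 8 arrays, Foxl2, Inha and Cyp19a1 among them. Over the whole array 10513 of the 14217 named genes were measured, and 8108 of the 14058 measured probe sets were so on all 8 arrays. The members' score and the granulosa score were both highest or next to highest on array 2074, at 0.62 and 0.49, and both low on array 2196, at -0.38 and -0.48. On array 2198, where the members' score was highest (0.66), the granulosa score was 0.02. On array 2194, where the members' score was lowest (-0.40), it was 0.04. Over the 8 arrays Pearson's r between both scores was 0.66 and Spearman's rho 0.50, and neither was tested.

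**Figure D4:**
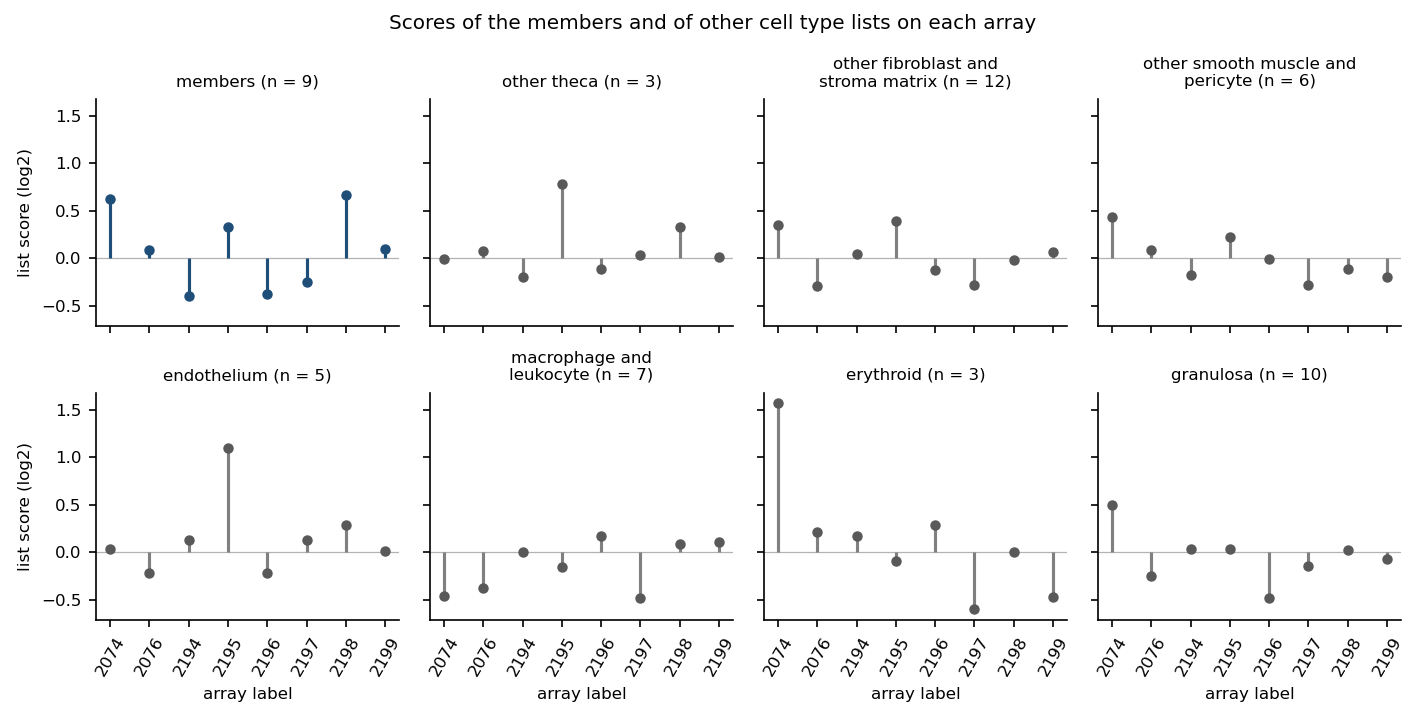
List score on each of the 8 arrays (mean log2 distance of the measured genes from their medians) for the 9 members and for 7 other lists, with the number of measured genes in brackets. The members stand highest on arrays 2198 (0.66) and 2074 (0.62), the erythroid list on 2074 (1.57) and the endothelial list on 2195 (1.09).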

How the data were processed

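RNA of granulosa cells was labelled and hybridised to rat whole-genome arrays, with an array for each deposited sample. The deposited values are linear signal intensities from MAS5 (submitters' processing notes), version not given in the sources used here. Trimmed means of 1500.5 to 1500.6 on every array showed scaling before deposit. Detection calls were not used here.

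After leaving out 57 control probe sets, log2 signals were scaled so that probe sets above the median on every array had a common median, and values under the 40th percentile were raised to it. Names came from the platform annotation, which can be old; looked up by gene identifier in GRCr8, 0 symbols changed. Of all probe sets 20826 had 1 symbol, 436 several and 9780 none. The brightest measured probe set stood for a gene in scores and correlations. Correlations were tested by all 40320 orderings of the arrays with Benjamini-Hochberg adjustment over all measured genes. Such p-values take the arrays as interchangeable. Unknown treatment groups, or a difference that goes with the label numbers, would break this, and neither was tested.

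Member genes and lists were chosen with earlier results of these data known. Named genes are the members, the 3 nearest genes of each, and up to 3 genes of each list by inner range; other listed genes were named to complete counts or after their values were seen. The olfactory receptor background was also chosen then. Nothing shows that arrays came from separate animals. Python 3.11.15, numpy 2.4.6, pandas 2.3.3 and scipy 1.17.1 were used.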

Additional observations from a re-analysis of the deposited data

Results flagged for a closer look

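In 26 sets of 8 values tested for an array far from the rest (14 member probe sets and 12 list scores), 3 passed the 95% critical value of Dixon's ratio, which chance passes in about 1 in 20. Of the 2 Pdgfrb probe sets that did not count as measured, 1 had 844 on array 2195 against 86.7 to 262 on the other 7. Those 7 values were raised to the floors, 273 to 384, before the ratio of 0.698 was taken, so this flag rests on floor values. The brightest olfactory receptor probe set was 1256 on array 2195, and the floor of that array, 471, was the highest of the 8. The endothelial score was 1.09 on array 2195 and at most 0.29 on the other 7 (ratio 0.612). Tie1 was 1209.6, Tek 1405 and Emcn 966 there, and Tek alone of these exceeded that olfactory receptor signal. Esam, the only endothelial gene measured on all 8 arrays, was not high there, at 713 against its median of 837. Pecam1 was 559 there and highest on array 2197, at 609. The erythroid score was 1.57 on array 2074 and at most 0.29 elsewhere (ratio 0.589), led by Hbb and Alas2.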

How the results depend on the processing

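The number of arrays and the weak signal of most members limit these values, and no array could be given a treatment. Inner ranges of the score are given here as differences in log2 units. The number of measured member probe sets, 10, became 2 when a signal above the median was required on all 8 arrays; then 1 reached 2-fold, beside 20.1% of all measured probe sets, and the inner range of the score was 1.43. With arrays 2194 and 2196 to 2199 alone, an alternative chosen after seeing the data, 2 reached 2-fold, beside 6.14%, the inner range of the score came to 0.49, and that of the members had a log2 median of 0.56, against 1.29 over all arrays; fewer arrays narrow an inner range by construction. With the full range in its place that median was 2.03. With 1 array left out in turn, 5 to 7 member probe sets reached 2-fold, beside 20.5% to 26.7% of all, 9 to 10 were measured, the score inner range ran from 0.69 to 1.10, the median log2 inner range from 1.13 to 1.31 and the median correlation from 0.11 to 0.36. No scaling and quantile normalization left 7 at 2-fold, beside 31.0% and 29.1%, and 8 reached it, beside 43.7%, with the floor lowered to the 25th percentile or removed. Without the floor the inner ranges of Cyp17a1, Dcn and Pdgfrb, each under it on 4 or 5 arrays, were 5.39-fold, 6.20-fold and 10.96-fold. When a measured probe set had to exceed all olfactory receptor probe sets on at least 2 arrays, also chosen after seeing the data, 7 were measured and 5 reached 2-fold, beside 31.5%. The median correlation stayed between 0.11 and 0.36 under all 19 alternatives. No paired analysis was possible because no array has a group.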
